A study of Mus musculus with 6 samples.

Results

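Of the 43523 distinct regions of open chromatin measured in nephron progenitor cells of the mouse, 1022 were not annotated as promoters and carried a match to the DNA motif of a Jun protein, a subunit of the transcription factor AP-1. These distal AP-1 regions are described here. They were chosen from the annotation of the count table, as regions with no promoter entry and with a motif name that began with Fos or Jun, and no accessibility value was used. The table listed 56 motif names and 0 that began with Fos, so the choice rested on Jun, Junb and Jund alone. The 1022 regions made up 3.47% of the 29426 distal regions, and 317 promoter regions (2.25% of promoters) also carried a Jun name.

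Accessibility was measured by ATAC-seq, a method that cuts and tags accessible DNA with Tn5, so that more reads fall where chromatin is more open. The cells came from CD1 mice, with no allele or agent named in the labels, at embryonic stage E14.5 (3 libraries) and on the day of birth, P0 (3 libraries). Each library was made from 50000 cells out of the pooled kidneys of a different litter, taken with beads against Itga8, a surface integrin of these progenitors, so a library averages over the animals of a litter and over every cell type that the beads retained. The comparison asked which AP-1 regions were more or less open at P0 than at E14.5, and whether the difference exceeded the spread between litters.

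AP-1 is a dimer of a Jun protein with a Fos, Jun or Atf protein, and it binds a 7-base core written TGANTCA. Its subunits are induced or phosphorylated in response to growth factors and to stress kinases such as JNK, and it acts mainly at distal enhancers, where it is known to help other factors open chromatin. In nephron progenitors, Bmp7 is known to promote proliferation through JNK and Jun. Bach1 and Bach2 bind, with small Maf proteins, a longer sequence that holds the same core.

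The 2441 listed Jun, Junb and Jund matches fell on 1078 separate sites, because the 3 names often marked the same bases. All 3 names stood at 617 sites, 2 names at 129 and 1 name at 332, of which 312 were Junb alone. The matches were 10 bases long for Junb, 11 for Jun and 12 for Jund, and their median scores were 13.4, 13.9 and 13.8. Junb was listed in 1000 of the 1022 regions, Jun in 683 and Jund in 639. A single site was listed in 984 regions, 29 held 2 sites, and 9 held 3 or more.

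The position of a site could be set against reference sequence where it fell in a RefSeq promoter window, which covers 300 bases around the start of a RefSeq transcript, assembly GRCm38.p6. All 84 listed sites in such windows, promoters included, held TGANTCA at the computed place. The core was TGAGTCA at 46 sites and its reverse complement TGACTCA at 32, while TGATTCA stood at 4 and TGAATCA at 2. Over all 32851 windows, 7.81% held TGANTCA on either strand, and 1.79% held TGACGTCA, a longer form bound by Jun and Atf dimers that shares no full core with it. The 7 distal sites below lay in such windows. Their regions thus lie at or near a RefSeq transcript start, and are distal only by the annotation used to choose them. The sites are shown because they give the letters behind the listed names, on the plus strand, with the core in capitals.
Zfp869 start, chr8:69716981-69717047: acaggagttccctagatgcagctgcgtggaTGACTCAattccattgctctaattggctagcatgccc
4930556N09Rik start, chr10:97035530-97035596: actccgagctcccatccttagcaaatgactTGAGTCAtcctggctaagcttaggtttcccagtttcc
Gm36488 start, chr4:13587134-13587200: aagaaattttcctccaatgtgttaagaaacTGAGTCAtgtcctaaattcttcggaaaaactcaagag
Gm39098 start, chr7:130645955-130646021: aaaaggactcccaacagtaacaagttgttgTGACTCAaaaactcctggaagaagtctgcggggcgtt
Gm34643 start, chr14:103012651-103012717: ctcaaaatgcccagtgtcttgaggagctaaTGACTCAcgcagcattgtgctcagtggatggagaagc
Gm51476 start, chr7:35363146-35363212: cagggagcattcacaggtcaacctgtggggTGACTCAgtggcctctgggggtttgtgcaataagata
LOC115486439 start, chr5:143975288-143975354: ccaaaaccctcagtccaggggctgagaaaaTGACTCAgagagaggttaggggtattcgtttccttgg

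The letters on either side of the core differed among these sites, and so did the names listed. The sites by Gm34643, Gm51476 and LOC115486439 matched all 3 names, and the other 4 matched Junb alone. None of the 7 regions passed the threshold of the stage comparison given below. The region at 4930556N09Rik read 13.8, 18.7 and 11.7 CPM (counts scaled to a common library size and composition) at E14.5 and 24.0, 23.9 and 19.7 at P0 in replicates 1, 2 and 3, with a log2 fold change of 0.60 (SE 0.22, edgeR adjusted p = 0.141). The P0 libraries lay above the E14.5 libraries there, though replicate 2 of E14.5 was within 1 CPM of replicate 3 of P0. The region at Gm39098 read 29.3, 31.4 and 39.5 CPM at E14.5 and 25.7, 16.8 and 25.3 at P0 (log2 fold change -0.55, SE 0.21, edgeR adjusted p = 0.168). Its P0 libraries all lay below its E14.5 libraries.

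The names in the table covered only a part of the cores in the DNA. In windows that lay inside a region of the table, 361 cores read TGAGTCA or TGACTCA, and 72 of them (19.9%) were listed under a Jun name. Read as TGAGTCA, the base that followed the core was A at 0 of the 72 listed cores and at 45 of the unlisted ones, whereas C followed 34 listed and 87 unlisted cores. Of 144 cores that read TGATTCA or TGAATCA, 5 were listed. Regions outside the set can therefore also hold an AP-1 core, and the comparisons with other distal regions below are comparisons with regions that lack the listed name. These shares come from promoter windows and were not measured at distal regions.

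Sites lay more often near the middle of their region than an even spread would place them. Of the 1078 sites, 227 (21.1%) were within 100 bp of the centre, a stretch that held 13.7% of the length of the regions, and the median distance was 280 bp. Other motif families showed the same in distal regions, with 20.7% for Bach, 18.3% for forkhead, 17.8% for Sox and 22.7% for E2F matches, where the stretch held 13.2%, 13.2%, 12.8% and 12.8% of the length.

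**Figure D1:**
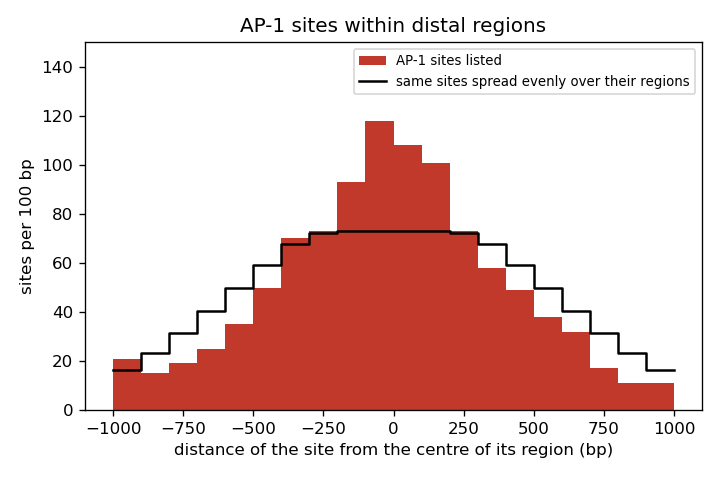
Number of listed AP-1 sites (y axis, sites per 100 bp) by distance from the centre of their region (x axis, bp, from 1000 bp before to 1000 bp after). Bars are the listed sites and the black line is the count that the same sites would give if spread evenly over their regions; the bars exceed the line most within 100 bp of the centre, where 227 sites lie.

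A few regions held runs of sites. A region of 838 bp in an intron of Commd10, on chromosome 18 from 46997617 to 46998454, held 8 sites, and 5 of the 7 spacings between them were 33 bp. It read 9.02, 9.20 and 8.99 CPM at E14.5 and 9.27, 7.26 and 8.76 at P0, a log2 fold change of -0.10 (SE 0.25, edgeR adjusted p = 0.878). A region that overlapped an exon of Eif2ak4, a kinase of the amino acid starvation response, held 5 sites on chromosome 2 from 118444105 to 118446886 (11.6 ± 2.98 CPM, SD, n = 3, at E14.5 and 15.1 ± 4.17 CPM, n = 3, at P0). Neither of these regions passed the threshold, nor did a region with 4 Junb sites that lay 80.5 kb from Gata3.

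By the table's annotation, 595 of the 1022 regions (58.2%) were intergenic, 345 (33.8%) lay in a gene outside exons and 82 (8.02%) overlapped an exon. Among the 28404 distal regions without a Jun name the shares were 57.7%, 33.9% and 8.39%. An enhancer of the FANTOM catalogue, which is based on transcribed enhancer RNA, was listed for 128 regions (12.5%, against 8.50% of the other distal regions). An element of VISTA, a catalogue of enhancers tested in transgenic embryos, was listed for 9 (0.881%, against 0.859%). The regions had a median length of 1649.5 bp (range 441 to 4416), against 1470 bp for other distal regions. Bach1 or Bach2 was listed beside the Jun name in 30.5% of the regions, against 1.68% of other distal regions. Forkhead names stood in 30.7% against 23.5%, Sox names in 17.6% against 15.0%, and Six2, the factor that maintains nephron progenitors, in 3.42% against 3.18%. These shares were not tested.

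The fewest counts in regions were 6492996 (P0 replicate 2) and the most 12292629 (P0 replicate 3). P0 replicate 2 stood apart in its promoters, whose median deviation from their 6-library mean was -0.21 on the log2 scale there, against -0.05 to 0.11 in the other 5 libraries. The AP-1 regions held median counts of 90 to 156.5 across the 6 libraries, and 1 of the 1022 had under 10 counts in a library, so every one was tested. Their mean accessibility ran from 3.00 to 180 CPM with a median of 12.7, close to the 11.6 of other distal regions and below the 25.5 of promoters. Promoter regions were found for 6 of 8 nephron progenitor markers, Six2, Cited1 and Itga8 among them (summed level 177 to 180 CPM at E14.5, 147 to 189 at P0). They were also found for 5 of 8 markers of ureteric epithelium (137 to 164, then 115 to 146), 3 of 8 of stroma (69.8 to 84.5, then 61.7 to 102), 3 of 8 of endothelium (56.2 to 71.2, then 52.7 to 65.8), 5 of 8 of differentiated nephron (104 to 125, then 104 to 126) and 0 of 8 immune markers. Of the 22 marker promoters, 0 passed the threshold by edgeR's test, 1 had an unadjusted p under 0.05, and DESeq2 called 1, that of the tubule gene Umod, as lower at P0. Over all promoters 0.851% passed the threshold (0.383% higher and 0.468% lower at P0) and 8.73% had such an unadjusted p, so these counts are near the background. The part of other cell types in the results was not tested. A change in the mix of cells and a change within cells cannot be told apart in such bulk libraries.

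The level of the AP-1 regions as a set differed little between stages. Their part of all counts, in the order of the replicates, was 1.34%, 1.61% and 1.41% at E14.5 and then 1.61%, 1.63% and 1.51% at P0. The mean was 1.46% ± 0.140 (SD, n = 3) for E14.5 and 1.58% ± 0.0639 (n = 3) for P0, a difference of 0.127 points (0.0703 without E14.5 replicate 1 and 0.205 without E14.5 replicate 2), and E14.5 replicate 2 lay above P0 replicates 1 and 3. Other distal regions took 38.9% ± 3.02 and 42.2% ± 2.79. The median AP-1 region stood 0.09 above its own 6-library mean on the log2 scale in both P0 replicates 1 and 2, 0.02 below it in P0 replicate 3, 0.05 above it in E14.5 replicate 2, and 0.06 and 0.09 below it in E14.5 replicates 1 and 3. The libraries of the stages thus overlapped. Within a stage, the median SD of a region's log2 CPM was 0.26 at E14.5 and 0.22 at P0, against 0.28 and 0.26 in other distal regions.

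**Figure D2:**
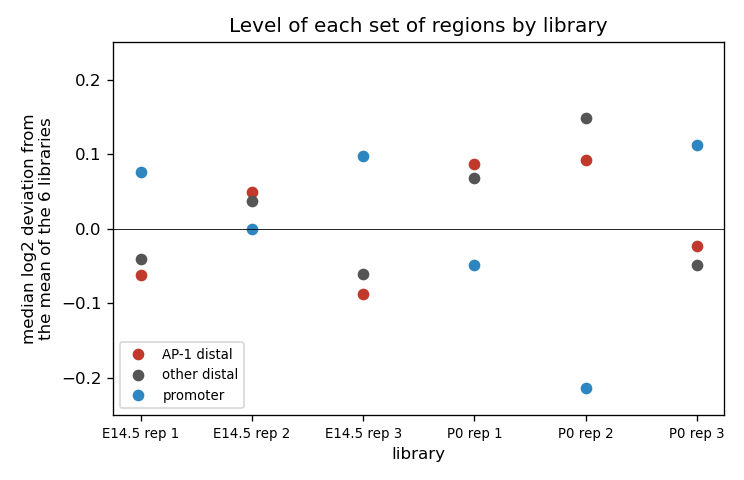
Median deviation of regions from their own mean over the 6 libraries (y axis, log2 CPM) in each library (x axis), for AP-1 distal regions, other distal regions and promoters. AP-1 and other distal regions are highest in P0 replicates 1 and 2, and E14.5 replicate 2 lies above P0 replicate 3.

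Of the 1022 regions, 81 (7.93%) differed between the stages by edgeR's quasi-likelihood test, at a Benjamini-Hochberg adjusted p under 0.05 over all 43523 regions. Over all regions the share was 4.73%, and over distal regions without a Jun name it was 6.54%. At P0, 35 AP-1 regions were more open (3.42%, against 1.79% of all regions and 2.43% of other distal regions) and 46 were less open (4.50%, against 2.94% and 4.12%). The share of AP-1 regions that changed was thus near that of distal regions in general, and no test of the difference was made. The median log2 fold change of the AP-1 regions was 0.09 (quartiles -0.22 and 0.37), against 0.10 in other distal regions, -0.10 in promoters and 0.01 over all regions. In 597 regions (58.4%) it was above 0, as in 59.3% of other distal regions.

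The stages did not overlap, with all 3 P0 values above or all 3 below the E14.5 values, in 332 AP-1 regions: 195 were higher at P0 and 137 lower. That is 32.5% of them, against 24.2% of all regions and 27.7% of other distal regions. Other distal regions leaned the same way (4299 higher, 3556 lower), whereas all regions did not (5147 and 5401). At an unadjusted p under 0.05 there were 270 (26.4%, against 18.7% and 23.4%). The changed regions had median log2 fold changes of 1.04 (higher) and -1.10 (lower), and 20 of the 35 and 35 of the 46 changed at least 2-fold. Together that is 55 of 81, near the 1445 of 2059 calls over all regions and the 1333 of 1858 in other distal regions. In 80 of the 81 the stages did not overlap, which follows in part from their selection.

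The number of changed regions rested on single libraries. It was 12 without E14.5 replicate 3, 15 without P0 replicate 1, 38 without E14.5 replicate 1, 54 without P0 replicate 2, 82 without P0 replicate 3 and 97 without E14.5 replicate 2. The balance depended on the scaling, with 37 higher and 37 lower when libraries were scaled by total count. Among other distal calls 44.0% were then higher, against 37.1% in the main fit. Without E14.5 replicate 2 the balance turned, with 55 of the 97 higher at P0 (56.7%), and 63 of the 97 were among the 81. It turned alike among the calls of other distal regions (56.7% higher) and of all regions (56.6%). In these fits the share among AP-1 regions stayed near that among other distal regions (1.17% against 1.11%, 1.47% against 1.56% and 9.49% against 9.49% in the lowest 2 and the highest). On simulated counts of the same depth, 98 of 200 regions with a 2-fold change passed the test. Those 200 were drawn from all 43523 regions, promoters included, and no others were changed, whereas 2059 regions passed in the real data. The rate need not therefore hold for AP-1 regions, but a region short of the threshold may still differ 2-fold.

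**Figure D3:**
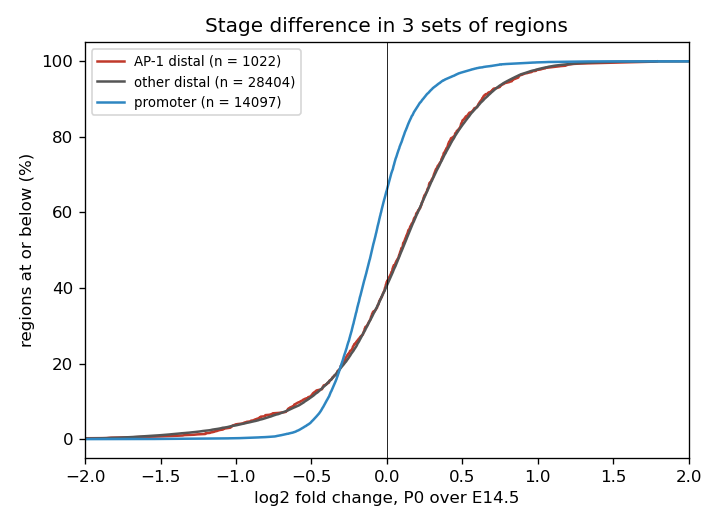
Cumulative share of regions (y axis, %) by log2 fold change of P0 over E14.5 (x axis), for AP-1 distal regions, other distal regions and promoters. The AP-1 curve runs along that of other distal regions (medians 0.09 and 0.10), to the right of promoters (median -0.10).

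**Figure D4:**
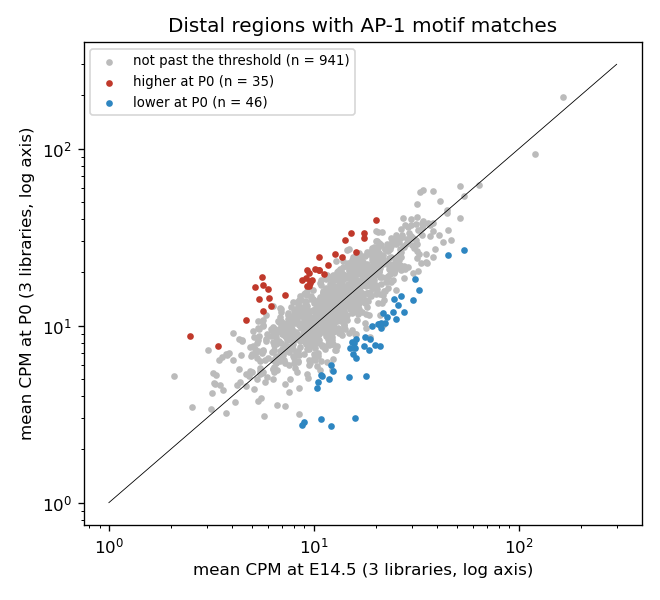
Mean CPM at P0 (y axis, log scale) against mean CPM at E14.5 (x axis, log scale) of the 1022 AP-1 distal regions, 3 libraries per stage. The line marks equal values; 35 regions passed the threshold as higher at P0 and 46 as lower, and regions with the most counts lie near the line.

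Among the regions more open at P0, the 8 with the largest fold change were at Col4a6, Armc4, Jade1, Dock10, Wars, Tnn and Tbc1d4, and between Pramel51 and Gm5662. The largest gain was in an intron of Col4a6, which encodes a chain of type IV collagen, on chromosome X from 141363269 to 141363867. It read 3.56, 2.89 and 1.05 CPM at E14.5 and 10.9, 8.63 and 6.63 at P0, in replicates 1, 2 and 3. All P0 libraries were above all E14.5 libraries, from counts of only 9 to 33 at E14.5. The log2 fold change was 1.79 (SE 0.40, edgeR adjusted p = 0.0187), and the call was lost without E14.5 replicate 3 (adjusted p = 0.0976) or P0 replicate 1 (0.129). A Jun, Junb and Jund site lay 16 bp from its centre.

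The next gains overlapped exons. In Armc4, a gene for the docking of dynein arms in motile cilia, the region on chromosome 18 from 7288077 to 7289100 read 7.24, 4.64 and 4.79 CPM at E14.5 and 25.7, 16.8 and 14.1 at P0. Its log2 fold change was 1.77 (SE 0.28, edgeR adjusted p = 0.00365), with the P0 libraries well apart from the others. In Jade1, which encodes a subunit of a histone acetyltransferase complex, the region on chromosome 3 from 41605616 to 41606617 read 4.98, 5.61 and 4.91 CPM at E14.5 and 17.6, 14.8 and 17.0 at P0. The replicates were close to each other there, and the log2 fold change was 1.67 (SE 0.23, edgeR adjusted p = 0.00213). In Dock10, a guanine nucleotide exchange factor, the region on chromosome 1 between 80605959 and 80606919 rose to 16.9 ± 2.59 CPM from 5.63 ± 1.81 (SD, n = 3 each), and it held the only site among these 8 that matched Jund alone. These 3 gains passed the threshold in all 14 other fits.

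The remaining 4 gains ranged from 2.30-fold to 2.72-fold. The region in Wars, the gene of tryptophanyl-tRNA synthetase, rose to 16.1 ± 3.16 CPM from 6.00 ± 1.72 (chromosome 12, 108879633 to 108881099; SD, n = 3 each), and lost its call without P0 replicate 1 (edgeR adjusted p = 0.0677). A region 0.062 kb from Tnn, which encodes a tenascin of the extracellular matrix, on chromosome 1 from 160083545 to 160084967, read 4.75, 7.01 and 4.44 CPM at E14.5 and 17.8, 16.5 and 8.37 at P0. A region in an intron of Tbc1d4, a Rab GTPase activator in glucose transporter trafficking, rose to 14.4 ± 3.18 CPM from 6.04 ± 2.20 (chromosome 14, 101568498 to 101569273). The last lay on chromosome 12 from 88210215 to 88212053, between Pramel51 and Gm5662, among genes of repeated families, so the origin of its counts is uncertain. It read 12.6, 10.7 and 8.64 CPM at E14.5 and 38.1, 16.7 and 18.5 at P0, and P0 replicate 1 stood far above the rest. The Tnn and Tbc1d4 regions and this one each lost the call without E14.5 replicate 1 (edgeR adjusted p = 0.0832, 0.0974 and 0.0561), without E14.5 replicate 3 (0.141, 0.150 and 0.182) and without P0 replicate 1 (0.159, 0.165 and 0.258). The Tnn region also lost it without P0 replicate 2 (0.0576) and with limma-voom (0.0568), and the region between Pramel51 and Gm5662 without E14.5 replicate 2 (0.0596).

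Among the regions less open at P0, 7 of the 8 largest losses were intergenic. The largest lay on chromosome 13 from 116017520 to 116018422, 280 kb from Isl1, which encodes a LIM homeodomain factor, and 916 kb from Itga1. It read 13.8, 13.7 and 20.1 CPM at E14.5 and 2.29, 4.09 and 2.68 at P0. The stages were far apart, with a log2 fold change of -2.42 (SE 0.30, edgeR adjusted p = 0.00116). Forkhead (Foxl2) and Pax6 names were listed there beside Jun and Junb.

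The second loss lay in an intron of Tox3, a gene of the HMG-box family, on chromosome 8 from 90301961 to 90303272. It stood between 10.6 and 13.8 CPM in the E14.5 libraries and between 2.29 and 3.03 in the P0 libraries (12.1 ± 1.61 and 2.72 ± 0.383, SD, n = 3 each; log2 fold change -2.15, SE 0.29, edgeR adjusted p = 0.00183). The replicates of each stage were close, and only Jun names were listed. The region between Hace1 and Grik2 on chromosome 10, from 46785074 to 46786322 and over 1000 kb from either gene, read 16.4, 16.2 and 21.4 CPM at E14.5 and 5.10, 7.11 and 3.32 at P0 (log2 fold change -1.83, SE 0.28, edgeR adjusted p = 0.00327). A region on chromosome 4 from 69261907 to 69264128, 308 kb from Brinp1, fell from 20.9 ± 1.91 to 7.69 ± 2.12 CPM (SD, n = 3 each) and listed Foxj2 and Meis1 beside Junb. These 4 losses also passed the threshold in all 14 other fits.

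The remaining 4 losses ranged from 2.89-fold to 3.63-fold. A region 3.94 kb from Mtarc1 and 49.2 kb from Hlx, a homeobox gene, fell from 10.8 ± 3.23 to 2.98 ± 1.05 CPM on chromosome 1, from 184781679 to 184782828. Also on chromosome 1, from 66115295 to 66115825, a region 59.4 kb from Map2, the gene of a microtubule-associated protein, fell from 8.71 ± 0.660 to 2.76 ± 0.786 CPM. The region on chromosome 3 from 115866656 to 115867989 lay 20.1 kb from Dph5 and 152 kb from S1pr1, a receptor for sphingosine 1-phosphate. It fell from 14.8 ± 3.28 to 5.10 ± 0.108 CPM and listed Foxf1, Foxj2 and Foxj3. On chromosome 5, from 61372737 to 61373452, a region 435 kb from G6pd2 fell from 8.97 ± 1.70 to 2.85 ± 1.65 CPM (SD, n = 3 each throughout). Without E14.5 replicate 3 the edgeR adjusted p was 0.0778, 0.0704, 0.0512 and 0.0738 for these 4 regions in turn. The last of them also lost the call without E14.5 replicate 1 (0.0862) or P0 replicate 1 (0.115).

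**Figure D5:**
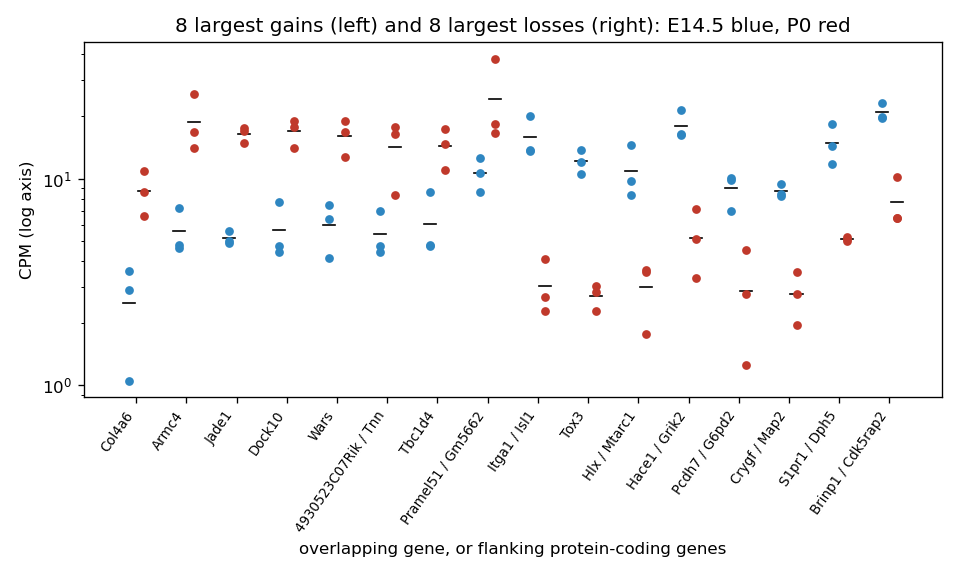
CPM (y axis, log scale) of the 8 largest gains and 8 largest losses among AP-1 distal regions (x axis, by overlapping gene or flanking protein-coding genes). Points are the 3 E14.5 libraries (blue) and the 3 P0 libraries (red) and bars are stage means; the colours do not overlap in any of these regions, as the choice of regions required.

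The 5 AP-1 regions with the most counts did not pass the threshold. The highest lay in an exon of Sfi1 on chromosome 11, from 3158502 to 3160305, with 193, 107 and 194 CPM at E14.5 and 208, 260 and 117 at P0. The libraries varied more within a stage than between stages there (165 ± 49.9 and 195 ± 72.6, SD, n = 3 each), and Sfi1 belongs to a repeated segment of the mouse genome, so the origin of the counts is uncertain. The region at Zfp869, whose site is printed above, read 109, 108 and 143 CPM at E14.5 and 98.5, 73.4 and 109 at P0 (log2 fold change -0.36, SE 0.22, edgeR adjusted p = 0.422). The other 3 lay on chromosome 8 (20028834 to 20031561, between 9530057J20Rik and Gm15319), on chromosome 14 (41423789 to 41426350, between Gm6482 and Gm7954) and in an intron of Mctp1 on chromosome 13 (76808871 to 76811217). Their log2 fold changes were -0.03, 0.24 and 0.00 (edgeR adjusted p = 0.967, 0.599 and 0.995). Whether counts on chromosomes 8 and 14 came from repeated sequence was not tested. The Mctp1 region is also a VISTA element, and it listed Six2, Sall1 and Sox10 beside Junb.

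The share that changed was also read by the number of names at a site and by its place. Of the 591 regions in which a site matched all 3 names, 43 (7.28%) changed, 21 higher and 22 lower at P0, with a median log2 fold change of 0.11. Of the 313 with no more than 1 name at a site, 31 (9.90%) changed, 11 higher and 20 lower (median 0.09). With a site within 100 bp of the centre, 20 of 218 changed (9.17%), and without one 61 of 804 (7.59%). Of the 38 regions with 2 or more sites, 1 changed (2.63%). The share was 6.54% among other distal regions and 4.73% over all regions. These groups were not tested against each other.

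Gains and losses were also counted by the other motifs listed in a region. Of the 314 AP-1 regions that also listed a forkhead name, 34 (10.8%) changed, 10 higher and 24 lower at P0, and their median log2 fold change was 0.03, against 0.12 without one. Distal regions with a forkhead name but no Jun name showed 587 of 6669 changed (8.80%), 130 higher and 457 lower, with medians of 0.05 and 0.12. Of the 132 regions with a Sall name, 0 were higher and 5 lower by edgeR's test (2 and 6 by DESeq2, 17 and 11 at an unadjusted p under 0.05), or 3.79%, where of 3398 distal regions with a Sall but no Jun name 87 were higher and 76 lower (4.8%). The median log2 fold change of AP-1 regions was 0.09 with and without a Sall name. Of the 35 with Six2, 0 were higher and 3 lower by edgeR's test and by DESeq2 (3 and 4 at an unadjusted p under 0.05), or 8.57%, where of 903 distal regions with Six2 but no Jun name 22 were higher and 14 lower (3.99%), and the median was again 0.09 with and without it. Of the 80 with a Meis name, 9 changed (11.2%), 5 higher and 4 lower, against 26 higher and 116 lower in other distal regions with one (7.43%). Of the 312 with Bach1 or Bach2, 8 were higher and 12 lower (6.41%, against 5.44% of other distal regions with such a name), and of the 180 with a Sox name 4 and 6 (5.56%, against 6.42%). Maz stood in 157, of which 2 were higher and 6 lower (5.10%, against 5.51%). The 102 with a Smad name had 3 higher and 1 lower (3.92%, against 4.44%), and the 64 with an E2F name had 1 and 1 (3.12%, against 4.23%). Of the 51 with a Pax name, 0 were higher and 3 lower by edgeR's test (1 and 4 by DESeq2, 4 and 7 at an unadjusted p under 0.05), or 5.88%, against 32 higher and 44 lower (5.67%) in other distal regions with one. Of the 388 regions that listed no family other than Bach beside Jun, 31 changed (7.99%), 17 higher and 14 lower, with a median of 0.11. Among other distal regions, whatever their names, 6.54% changed, 689 higher and 1169 lower. No test of these differences was made.

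The share that changed was also read by length and level, with no test between classes. In 3 length classes of distal regions, up to 1205 bp, up to 1788 bp and longer, 9.02%, 9.01% and 6.38% of AP-1 regions changed, against 6.39%, 7.69% and 5.54% of the others. In 3 classes of mean CPM, up to 9.21, up to 14.7 and higher, the shares were 6.25%, 8.53% and 8.35%, against 4.84%, 7.27% and 7.54%. By place, 50 of 595 intergenic AP-1 regions changed (8.40%), 25 of 345 in genes outside exons (7.25%) and 6 of 82 at exons (7.32%), against 6.95%, 6.22% and 5.03% of other distal regions. With a FANTOM enhancer, 4 of 128 changed (3.12%, against 3.19% of other distal regions with one), and of the 9 with a VISTA element 1 did (11.1%, against 2.46%).

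At Tbl1xr1, a subunit of nuclear corepressor complexes, an AP-1 region in an intron fell from 10.5 ± 2.13 to 4.79 ± 0.603 CPM (chromosome 3, 22147809 to 22148934; log2 fold change -1.13, SE 0.28, edgeR adjusted p = 0.0314). Another, 137 kb from the gene, rose from 17.6 ± 2.68 to 33.6 ± 12.1 CPM (chromosome 3, 21937771 to 21938772; log2 fold change 0.94, SE 0.25, edgeR adjusted p = 0.0475; SD, n = 3 each). The second was the only changed AP-1 region whose stages overlapped, with 20.4 CPM in E14.5 replicate 2 and 20.3 in P0 replicate 2. The regions at Tbl1xr1 and Rarb were chosen after their values were seen. In an intron of Rarb, a retinoic acid receptor, a region on chromosome 14 from 16509760 to 16511498 rose to 16.7 ± 1.27 CPM from 9.28 ± 1.90 (log2 fold change 0.84, SE 0.23, edgeR adjusted p = 0.0470). The intronic Tbl1xr1 region lost its call without 4 libraries (E14.5 replicates 1 and 3 and P0 replicates 1 and 2, adjusted p from 0.0586 to 0.207). The other lost it in every leave-one-out fit but the one without P0 replicate 2 (from 0.0525 to 0.310) and with limma-voom, and the Rarb region in all 6 (from 0.0556 to 0.237).

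AP-1 distal regions at genes of the nephron lineage were counted next. Within gene bodies and 10 kb on either side, 12 of 15 nephron progenitor genes had 28 regions, of which 0 were AP-1 distal regions, and 11 of 15 differentiation genes had 30 regions, of which 1 was, where AP-1 distal regions made up 2.35% of all regions. That one lay in an intron of Cdh6, a cadherin of early proximal tubule cells, on chromosome 15 from 13046830 to 13047910, with 2 sites and 3.71 and 3.20 CPM at E14.5 and P0 (log2 fold change -0.19, SE 0.52, edgeR adjusted p = 0.893). Over all regions of these lists, 0 progenitor regions rose and 2 fell, at Eya1 and Itga8, and 1 differentiation region rose, at Pax8, and 0 fell, the same counts as by DESeq2. At an unadjusted p under 0.05 there were 2 higher and 2 lower progenitor regions and 6 higher and 1 lower differentiation regions. Over all regions 4.73% were called and 18.7% had such an unadjusted p, so these counts lie near the background. The median log2 fold changes were 0.11 and 0.06.

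The genes of AP-1 itself and of its kinases were open at both stages. All 15 genes of that list (7 Fos and Jun genes, 3 Atf and Batf genes and 5 kinases of the JNK pathway) had regions, 31 in all, of which 0 were AP-1 distal regions. The 31 are not independent, since the Fos promoter was counted as several nested intervals. Some are promoters of neighbouring genes within 10 kb, such as Tgfbr3l and Snapc2 near Map2k7. By edgeR's test and by DESeq2, 0 of the 31 passed the threshold. At an unadjusted p under 0.05 by edgeR, 1 was higher and 2 were lower, with the Snapc2 promoter among the lower. These counts are near the background, since 22 of the 31 were promoter regions, where the shares were 0.851% and 8.73%. Their median log2 fold change was -0.01. The promoter region of Jun had 155 CPM at E14.5 and 154 at P0, that of Jund 60.0 and 45.1, and that of Junb 11.5 and 13.9 (edgeR adjusted p = 0.990, 0.462 and 0.548).

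In the authors' deposited table, 44 of the AP-1 regions were classed as opening (4.31%, against 2.86% of all regions) and 32 as closing (3.13%, against 2.48%). All 35 regions called higher here were classed as opening in the authors' deposited table, and 32 of the 46 called lower as closing. Those classes in the authors' deposited table reached an adjusted p of 0.0989 among AP-1 regions, a looser limit than the 0.05 used here. At 0.05, the authors' deposited table held 26 AP-1 regions, and the share of all regions at that limit was not computed. All regions include the promoters, of which only 0.851% passed the threshold here. The shares of the deposited classes among other distal regions were not computed.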

How the data were processed

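Counts per region in 6 ATAC-seq libraries were used as deposited by the authors, in whole numbers per the file headers. The build is mm10, per the submitters' processing notes. The aligner, peak caller, counting rule and Tn5 shift are not given in the sources used here. Columns were matched to libraries by title, and 0 sample columns were left unmatched. Of 45489 rows, 1966 repeated a region.

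The deposited log2 fold changes and mean log2 values, p-values and scores (t and log odds) come from the authors' own comparison, by a model the labels do not describe, and only its classes and adjusted p-values are quoted.

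All 43523 regions were tested with edgeR 4.0.16 (R 4.3.3, TMM scaling, filterByExpr, which removed 0 regions, quasi-likelihood F test, stage as the only term) and adjusted by Benjamini-Hochberg. Log2 CPM used a prior count of 1, and a standard error is the log2 fold change over the square root of F. The fit was tested on simulated counts. Pairs of libraries of a stage differed over the members by a chi-square of 3.75 to 7.72 per degree of freedom, more than repeated reads of the same library would. This cannot tell a second library of the same pool from a library of another pool. Libraries come from separate pools of kidneys by the labels, and p-values measure the spread between these libraries.

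Regions named were the 8 largest changes each way among calls whose stages did not overlap, the 5 with most counts, and calls at 45 listed genes (0 found); others are marked, and a few results are not reported here. A Jun name's core was placed from the listed position, width and strand. Members, lists and rules were chosen with earlier results of these data known. Promoter windows are RefSeq's (GRCm38.p6, the assembly of mm10), as are gene neighbours. Alternatives are given at the end. Marker promoters were matched by the table's names (88.7% of promoter regions had one) or RefSeq windows.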

Additional observations from a re-analysis of the deposited data

How the results depend on the processing

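Of the 81 changed AP-1 regions, 58 passed the threshold in every fit with all 6 libraries (DESeq2 size factors, total-count scaling, DESeq2's Wald test, limma-voom, another or no filter, autosomes only, replicate block), 9 also passed in all 6 fits that left out a library, and all 81 kept their sign in every fit that tested them. In those all-library fits from 72 to 102 AP-1 regions changed, with 29 to 44 higher and 37 to 58 lower. The lowest (replicate block) and highest (DESeq2's Wald test) are 7.05% and 9.98%, against 5.87% and 8.64% of other distal regions. The split was even, 37 and 37, with total-count scaling. The Col4a6 region, on chromosome X, was not tested in the fit on autosomes or in that with at least 10 counts in every library. Across the fits without 1 library the count ran from 12 to 97, with 4 to 55 higher and 8 to 49 lower at P0, and the median log2 fold change from 0.05 to 0.13. The difference in share of counts ran from 0.0703 to 0.205 points, against 0.127. At an adjusted p under 0.01, 20 regions changed (5 higher, 15 lower), and the share of other distal regions at that limit was not computed. Among members that list no other family than Bach (chosen after seeing the data, fewer regions), 31 changed (17 higher, 14 lower), or 7.99%, against 6.54% of other distal regions.

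Of the 5 regions with the most counts, none past the threshold, 3 changed sign. The log2 fold change at Sfi1 (0.24) ran from -0.022 to 0.49 across the fits without 1 library, and was -0.0064 without E14.5 replicate 2. On chromosome 8 from 20028834 (-0.03) it ran from -0.16 to 0.13, was 0.11 once P0 replicate 3 was left out and 0.033 with total-count scaling. At Mctp1 (0.00) it ran from -0.12 to 0.14, was 0.11 once P0 replicate 2 was left out and 0.046 with total-count scaling. The cause was not tested.

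Replicate numbers come from different litters, and deviations of same-numbered libraries correlated at 0.07, -0.14 and 0.08, so the numbers do not pair the libraries and not every library correlated best with its own number. With the replicate number as a block 72 AP-1 regions changed, 30 higher and 42 lower, 68 of them among the 81, with a median log2 fold change of 0.10; among the regions described, the Rarb region and the rising Tbl1xr1 region lost their calls. Members with both a Fos and a Jun name, and members with TGANTCA in their own sequence, could not be run, as no Fos name is listed and no genome was used here.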
